A study of Mus musculus with 10 samples.

Results

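Son, Scaf4, Paxbp1 and Rbm11 are 4 protein-coding genes of RNA processing that lie in the stretch of mouse chromosome 16 carried in an extra copy by Dp1Tyb mice. They were taken by name, as the genes of the deposited count table whose Ensembl identifiers carry these symbols in the GRCm38 annotation. The rule used no measured value, but earlier results of these data were known when the 4 genes were chosen. They are 4 of the 43629 genes in the table and 4 of the 250 that lie between Lipi and Zbtb21, the genes at the ends of the duplication. All 4 passed the filter on low counts, as did 114 genes of the duplicated segment and 17237 genes in all.

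RNA was sequenced from the total hippocampus of 10 mice labelled as 18 weeks old and of the strain C57BL/6J.129P2. Of these, 5 were wild-type (WT) and 5 were Dp1Tyb, which carry the allele Dp(16Lipi-Zbtb21)1TybEmcf, with 1 library per mouse. According to the methods of the study all were male and the WT mice were littermates of the Dp1Tyb mice. Those methods give a slightly higher age than the labels. Dp1Tyb is a model of Down syndrome, in which the genes of the segment are present in 3 copies in every cell. Since all of them are gained together, a difference elsewhere in the genome cannot be assigned to 1 of them.

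A newly made transcript has to be spliced, cut and polyadenylated before it leaves the nucleus, and SON, RBM11 and SCAF4 act on that path. SON is a large arginine- and serine-rich protein of nuclear speckles, the nuclear bodies where splicing factors collect, and it helps the spliceosome to remove introns with weak splice sites. RBM11 is a splicing regulator with a single RNA recognition motif that is found mainly in brain and testis, is a close relative of RBM7 and opposes the splicing factor SRSF1. SCAF4 binds the carboxy-terminal domain (CTD) of RNA polymerase II and, with its paralog SCAF8, keeps the polymerase from ending transcripts at early polyadenylation sites. PAXBP1 binds the transcription factors PAX3 and PAX7 and links them to histone methyltransferases, and it belongs to the same family as the splicing-related protein GCFC2.

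Sequence upstream of the RefSeq transcription starts is shown to describe the 4 genes. Whether it has a part in their higher level in Dp1Tyb was not tested. The sequences come from the RefSeq promoter table of GRCm38.p6, were cut to bases outside annotated exons, and are given 5′ to 3′ on the strand of the gene, with matches to the GC box (GGGCGG, read on both strands) in capitals. For Rbm11 the stretch is chr16:75592641-75592843 on the plus strand, and its GC boxes begin at −118, −98 and −60 from the start, the last on the opposite strand. For Scaf4 it is chr16:90284504-90284753 on the minus strand, upstream of the first of 2 RefSeq starts, with GC boxes at −60, −49 and −28. For Paxbp1 it is chr16:91044544-91044629 on the minus strand, with no match inside it.
Rbm11: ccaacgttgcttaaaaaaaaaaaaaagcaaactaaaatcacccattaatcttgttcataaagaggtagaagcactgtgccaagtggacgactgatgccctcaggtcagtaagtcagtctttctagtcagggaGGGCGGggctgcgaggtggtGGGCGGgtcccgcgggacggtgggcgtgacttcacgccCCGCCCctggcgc
Scaf4: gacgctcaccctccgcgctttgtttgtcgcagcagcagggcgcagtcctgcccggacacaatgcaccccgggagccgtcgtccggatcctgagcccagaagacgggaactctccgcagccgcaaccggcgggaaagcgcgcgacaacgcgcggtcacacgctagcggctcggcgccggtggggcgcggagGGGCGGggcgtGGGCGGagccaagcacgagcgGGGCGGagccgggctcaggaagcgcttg
Paxbp1: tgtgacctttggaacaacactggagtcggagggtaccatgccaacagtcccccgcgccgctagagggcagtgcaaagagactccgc

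The RefSeq window of Son lies wholly within an annotated exon, and part of that of Paxbp1 does, so there only 30 bases around a match are given. In Son the CCAAT box (CCAAT, or ATTGG on the opposite strand) is found at −22 in chr16:91647790-91647819 and, on the opposite strand, at −68 in chr16:91647744-91647773, both printed on the plus strand. In Paxbp1 the NRF1 motif, a palindrome of 10 bases whose letters are the capitals, is found at −135 in chr16:91044495-91044524 and a GC box on the opposite strand at −168 in chr16:91044530-91044559, both printed on the minus strand.
Son at −22: ctccctcacgagCCAATcaggaaagggata
Son at −68: cggtgttcgctgATTGGctcgtgggtggag
Paxbp1 at −135: gagagcccagGCGCATGCGCaatcgaggcg
Paxbp1 at −168: tgcaaagagactCCGCCCaagtagtggggc

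The matches shown do not overlap one another. In the 250 bases before each start, 32.7% of the 32817 promoters of the table hold a GC box, 33.8% a CCAAT box and 0.777% the NRF1 motif. The TATA box (TATAAA, in 12.4% of promoters), the ETS motif (CCGGAAG, 6.90%), the E-box (CACGTG, 6.02%) and the CREB motif (TGACGTCA, 1.55%) were searched on both strands and were found upstream of none of the 4 genes. The stretches of 250 bases were rich in G and C, at 59.2% for Rbm11, 64.8% for Son, 67.2% for Paxbp1 and 72.8% for Scaf4, against a median of 52.4% over all promoters. They held 20, 28, 27 and 36 CpG dinucleotides respectively, against a median of 6. These are descriptions of the sequence and carry nothing about binding.

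Total counts ranged from 18227684 to 43692270 per library, and mitochondrial genes took between 5.50% and 6.65% of them. Markers of the hippocampal fields were present, with a summed level of 584 to 676 CPM (counts scaled to a common library size) in WT and 632 to 652 CPM in Dp1Tyb. Of 9 marker lists, the 5 neuronal genes summed to between 4915 and 5209 CPM in WT and between 5365 and 5619 in Dp1Tyb. Among these neuronal genes mean CPM was higher in Dp1Tyb for Snap25, Syt1, Slc17a7 and Gad1 but lower for Rbfox3 (212 to 205). The 5 astrocyte genes summed to between 1259 and 1393 CPM in WT and between 1412 and 1484 in Dp1Tyb. Of them 1, Gfap, was itself called higher, at 0.26 ± 0.047 SE on the log2 scale (edgeR, adjusted p = 0.0167). Mean CPM was also higher for Aqp4 (126 to 147) and Slc1a3 (590 to 635), but lower for Gja1 (192 to 181) and Aldh1l1 (45.0 to 44.7). The mean log2 level of the neuronal list was higher in Dp1Tyb by 0.085 and that of the astrocyte list by 0.10 (exact two-sided permutation tests, p = 0.00794 and 0.0159, adjusted p = 0.0714 for both). The 5 endothelial genes were lower by 0.11 (exact p = 0.0476, adjusted p = 0.143). The differences of the microglia and blood lists were −0.11 and −0.42 (exact test, adjusted p = 0.214 and 0.321). Those of oligodendrocytes, hippocampal fields and thalamus were 0.067, 0.0092 and −0.040 (exact test, adjusted p = 0.598, 0.881 and 0.598). No marker of any list was at 0 in all libraries. The 8 choroid plexus genes summed to between 432 and 5446 CPM in WT and between 40.0 and 3911 in Dp1Tyb. Their mean log2 level differed by −1.81 (exact test, adjusted p = 0.321). In RNA from whole tissue, fewer cells of a type and less RNA per cell cannot be told apart, and the part of cell content in the results that follow was not tested.

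The comparison of the genotypes asked whether the 4 genes were expressed at a higher level where an extra copy was present. All 4 rose in Dp1Tyb, in every mouse, and in none of them did the values of the genotypes overlap. The rises ranged from 1.41-fold for Scaf4 to 1.82-fold for Rbm11. Across the transcriptome 1.11% of tested genes, 191 of 17237, were called at an adjusted p below 0.05 in edgeR, and 0.87% were called higher in Dp1Tyb. Within the duplicated segment 59.6% of tested genes were called, 68 of 114, and all of these were higher. The count of 4 of 4 is best read against that local share.

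Son (ENSMUSG00000022961), the speckle protein, lies on the plus strand at chr16:91647506-91679221 and had the most reads of the 4. In the WT mice, replicates 1 to 5, its level was 529, 567, 566, 587 and 542 CPM. In the Dp1Tyb mice it was 924, 876, 1004, 1085 and 950 CPM. The lowest Dp1Tyb mouse was thus well above the highest WT mouse, and the Dp1Tyb mice were spread more widely (968 ± 80.2 CPM against 558 ± 22.7 CPM, SD, n = 5). The log2 fold change was 0.79 ± 0.056 SE, or 1.73-fold with a 95% interval from 1.59 to 1.89 (edgeR, adjusted p = 3.22e-06). Between 10448 and 40290 reads per library stood behind these values.

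Rbm11 (ENSMUSG00000032940), the RNA recognition motif protein, lies on the plus strand at chr16:75592844-75602829 and is the first tested gene of the segment from its Lipi end. It had the fewest reads of the 4, with 161 to 271 reads in the WT libraries and 309 to 737 in the Dp1Tyb libraries. Its level was 8.43, 9.28, 8.73, 7.66 and 8.02 CPM in the WT mice and 16.9, 14.8, 14.8, 15.6 and 14.1 CPM in the Dp1Tyb mice. Even the lowest Dp1Tyb mouse lay above the highest WT mouse by more than the whole range of the WT mice. The means were 8.42 ± 0.627 CPM and 15.2 ± 1.06 CPM (SD, n = 5). The log2 fold change was 0.86 ± 0.075 SE, or 1.82-fold with an interval from 1.62 to 2.03 (edgeR, adjusted p = 2.12e-05).

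Scaf4 (ENSMUSG00000022983), the polymerase-binding protein, lies on the minus strand at chr16:90225680-90284503. Its level was 44.6, 51.8, 49.6, 53.2 and 54.6 CPM in the WT mice and 69.8, 66.3, 74.4, 70.2 and 76.2 CPM in the Dp1Tyb mice. WT replicate 1 was the lowest mouse, and the genotypes were set apart by a gap slightly wider than the range of the WT mice. The means were 50.8 ± 3.89 CPM and 71.4 ± 3.93 CPM (SD, n = 5). The log2 fold change was 0.49 ± 0.058 SE, or 1.41-fold with an interval from 1.29 to 1.53 (edgeR, adjusted p = 0.000364), on 914 to 3044 reads per library.

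Paxbp1 (ENSMUSG00000022974), the PAX3- and PAX7-binding protein, lies on the minus strand at chr16:91014037-91044543. Its level was 62.6, 61.8, 61.6, 59.9 and 62.0 CPM in the WT mice and 91.8, 88.5, 94.2, 98.0 and 92.9 CPM in the Dp1Tyb mice. Relative to its mean it had the narrowest spread among WT mice of the 4 genes. The means were 61.6 ± 1.02 CPM and 93.1 ± 3.44 CPM (SD, n = 5). The log2 fold change was 0.60 ± 0.036 SE, or 1.51-fold with an interval from 1.43 to 1.60 (edgeR, adjusted p = 7.47e-07), on 1137 to 4005 reads per library.

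**Figure D1:**
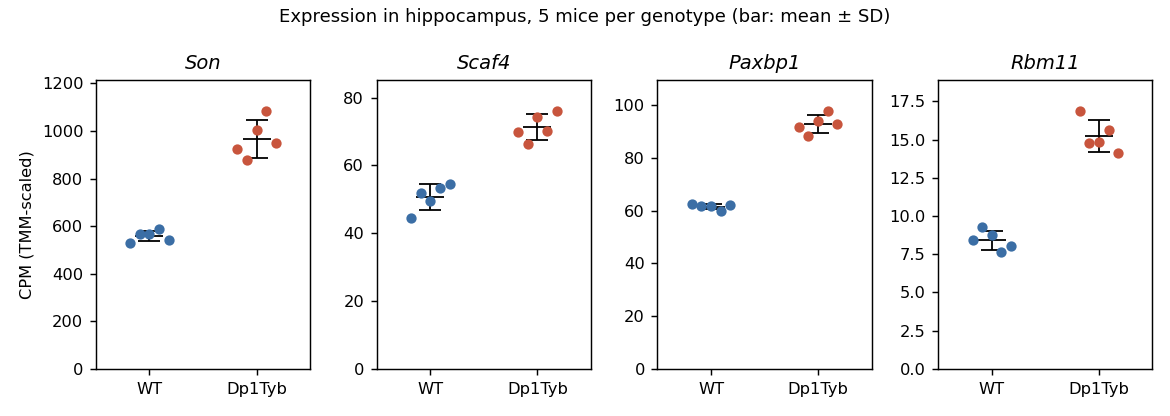
Level of each gene in CPM (vertical axes, starting at 0, scaled per gene) in the 5 WT and 5 Dp1Tyb mice; points are mice and the bars give mean ± SD. In every panel the 5 Dp1Tyb points lie above the 5 WT points, from 558 to 968 CPM on average for Son and from 8.42 to 15.2 CPM for Rbm11.

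Separation of all Dp1Tyb values above all WT values occurred in 2.56% of tested genes, 441 in all, and in 62.3% of the tested genes of the segment. The position of each rise within the segment differed among the 4 genes. Ranked by log2 fold change among the 114 tested genes of the segment, Rbm11 was at place 4, Son at 11, Paxbp1 at 40 and Scaf4 at 65. The median log2 fold change of the segment was 0.53, with an interquartile range from 0.34 to 0.64, against −0.0041 over all tested genes. Son and Rbm11 thus lay above that range, while Scaf4 and Paxbp1 were inside it.

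**Figure D2:**
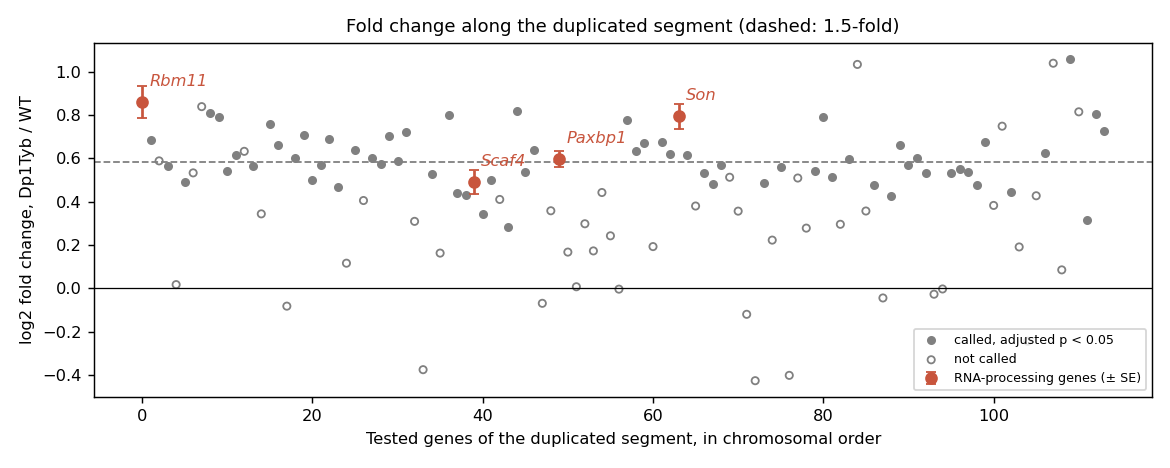
Log2 fold change of Dp1Tyb against WT (vertical axis) for the 114 tested genes of the duplicated segment in chromosomal order (horizontal axis); filled points are called genes, open points are not called, and the 4 named genes carry SE bars. The dashed line marks 1.5-fold; Rbm11, at the Lipi end, and Son lie above it at 0.86 and 0.79, Paxbp1 is on it at 0.60 and Scaf4 is below it at 0.49.

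To compare abundance between genes, reads were divided by exon length to give RPKM, the level per kilobase of exon. In WT, Son was at 37.4 ± 1.52 RPKM, Paxbp1 at 11.2 ± 0.185, Scaf4 at 9.15 ± 0.702 and Rbm11 at 3.06 ± 0.228 (SD, n = 5). In Dp1Tyb the RPKM levels were 64.9 ± 5.38, 16.9 ± 0.625, 12.9 ± 0.708 and 5.54 ± 0.386 in that order. The order was the same in both genotypes, and no neighbours in it overlapped: the closest pair, Paxbp1 and Scaf4, ranged from 10.9 to 11.4 and from 8.05 to 9.84 RPKM in WT. Against the 17104 tested genes with a length, the WT level of Son was at percentile 93.6, Paxbp1 at 75.3, Scaf4 at 70.4 and Rbm11 at 43.2. With the length of the longest transcript in place of all exons, WT levels became 63.9 RPKM for Son, 15.5 for Paxbp1 and 11.6 for Scaf4, in the same order.

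Whether the 4 genes rose by unequal amounts was tested on the ratio of 2 genes within each mouse, which needs no scaling for depth or length. Of the 6 pairs, 4 differed at an adjusted p below 0.05 in the exact permutation test. Son rose more than Scaf4, by 0.30 on the log2 scale (95% interval 0.16 to 0.46), and more than Paxbp1, by 0.20 (0.085 to 0.30), both with exact p = 0.00794 and adjusted p = 0.0159. Rbm11 also rose more than both. The log2 change of Paxbp1 minus that of Rbm11 was −0.26 (−0.41 to −0.096, exact p = 0.00794, adjusted p = 0.0159), and that of Scaf4 minus that of Rbm11 was −0.36 (−0.62 to −0.076, exact p = 0.0159, adjusted p = 0.0238). Within each of the remaining pairs the difference did not pass this threshold. The change of Son minus that of Rbm11 was −0.06 with an interval from −0.28 to 0.15 (exact permutation p = 0.524, from −0.094 without Dp1Tyb replicate 4 to −0.0071 without Dp1Tyb replicate 1), and that of Scaf4 minus that of Paxbp1 was −0.10 with an interval from −0.24 to 0.059 (exact permutation p = 0.167, adjusted p = 0.200). These intervals leave room for differences of the size seen in other pairs.

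The same values were set against the 1.5-fold rise that 3 copies in place of 2 would give. The log2 change of Rbm11 exceeded it by 0.27 (0.10 to 0.42, exact permutation p = 0.00794) and that of Son by 0.21 (0.07 to 0.35, exact permutation p = 0.0159), each with an adjusted p of 0.0317 over the 4 genes. Scaf4 differed from it by −0.09 (−0.23 to 0.058, exact permutation p = 0.167, adjusted p = 0.222) and Paxbp1 by 0.0099 (−0.049 to 0.073, exact permutation p = 0.754). The small difference of Paxbp1 turned to −0.0087 without Dp1Tyb replicate 4.

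Against the median of the other tested duplicated genes in the same mouse, Son was higher by a further 0.26 on the log2 scale (0.13 to 0.40) and Rbm11 by 0.32 (0.13 to 0.51). Both differences had exact p = 0.00794, the smallest value that 252 relabellings of the mice allow, and adjusted p = 0.0159. Paxbp1 exceeded that median by 0.061 (−0.006 to 0.14, exact permutation p = 0.0952, adjusted p = 0.127), and Scaf4 differed from it by −0.04 (−0.17 to 0.11, exact permutation p = 0.484). With Dp1Tyb replicate 2 left out the value for Paxbp1 was 0.077 (exact permutation, adjusted p = 0.0212), and against only those duplicated genes with a mean of at least 10 CPM it was 0.033 (exact permutation, adjusted p = 0.278). Against the latter genes the value for Scaf4 was −0.07 (exact permutation, adjusted p = 0.278), and leaving out 1 mouse took it to between −0.085 (WT 1 left out) and −0.017 (Dp1Tyb 2 left out).

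**Figure D3:**
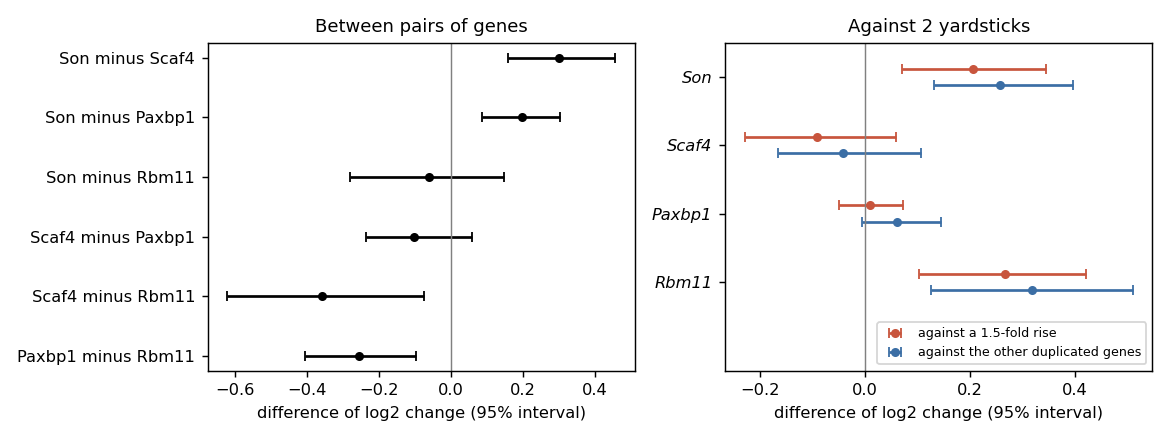
Differences of log2 change (horizontal axes) with 95% intervals from exact permutation tests; the left panel shows the 6 pairs of genes, and the right panel each gene against a 1.5-fold rise and against the median of the other duplicated genes. Intervals for Son and Rbm11 lie above 0 in the right panel, at 0.21 and 0.27 against 1.5-fold, while those for Scaf4 and Paxbp1 include 0.

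Scaf4, Paxbp1 and Son lie within 1.45 Mb of each other, and Rbm11 is 14.6 Mb away from Scaf4 toward the Lipi end. Most of their nearest tested neighbours rose as well. Gart, an enzyme of purine synthesis, starts 553 bp from Son in the opposite direction and rose by 0.62 ± 0.056 SE on the log2 scale (edgeR, adjusted p = 2.72e-05). Donson, a replication protein on the opposite strand, shares 103 exonic bases with Son and rose by 0.61 ± 0.083 (adjusted p = 0.00147). The log2 fold changes of both were lower than that of Son, 0.79. On its far side Gm10785, an antisense transcript with 23 to 63 reads, had a log2 fold change of 0.38 ± 0.17 (adjusted p = 0.342).

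Sod1, a superoxide dismutase on the opposite strand, overlaps the end of Scaf4 with 0 shared exonic bases and rose by 0.43 ± 0.073 SE on the log2 scale (edgeR, adjusted p = 0.00967). On either side of Scaf4, Tiam1, an exchange factor for Rac, rose by 0.44 ± 0.039 and Hunk, a kinase, by 0.35 ± 0.056 (adjusted p = 2.42e-05 and 0.00732). These 3 log2 fold changes and the 0.49 of Scaf4 are all below that of a 1.5-fold rise. Next to Paxbp1, Synj1, a phosphatase of synaptic vesicle recycling 2728 bp away, rose by 0.64 ± 0.044 (adjusted p = 2.68e-06). 4930404I05Rik shares 1142 exonic bases with Paxbp1 on the opposite strand, had 22 to 128 reads and a log2 fold change of 0.36 ± 0.20 (adjusted p = 0.427). On the other side 4932438H23Rik had 0.17 ± 0.29 (adjusted p = 0.823).

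Hspa13, a chaperone and the next tested gene after Rbm11, rose by 0.68 ± 0.047 SE on the log2 scale (edgeR, adjusted p = 2.38e-06). Before Rbm11 the nearest tested gene lay outside the segment, 630596 bp away. It was the processed pseudogene Gm26937, with 1 to 95 reads and a log2 fold change of 2.81 ± 0.29 (adjusted p = 0.000115). Whether reads from a near-identical copy were counted in it was not tested. The counting of reads by strand is not given in the sources used here, so reads in the exonic bases shared by Son and Donson, or by Paxbp1 and 4930404I05Rik, could not be told apart.

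The genes whose pattern was most like that of each of the 4 were found by the root mean square (RMS) difference of centred log2 levels over the 10 mice, among 15099 genes with a mean of at least 1 CPM. For Son these were Synj1, Ttc3 and Zbtb21, with RMS differences of 0.0899, 0.0922 and 0.0936, where the median gene had 0.423. For Rbm11 they were C2cd2, Ifnar1 and Cct8, at 0.0625, 0.0846 and 0.0976, where the median gene had 0.453. All 6 belong to the duplicated segment.

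Paxbp1 had the closest matches, Vps26c, Dyrk1a and Ltn1, at RMS differences of 0.0459, 0.0497 and 0.0533 (median gene 0.324), and these too are duplicated. For Scaf4 the 3 were Dop1b at 0.0638, Qpct at 0.0791 and Hlcs at 0.0833 (median gene 0.289). Qpct, which makes pyroglutamate ends on peptides, lies on chromosome 17 and is not duplicated; it rose by 0.37 ± 0.069 SE on the log2 scale (edgeR, adjusted p = 0.0193). Of the 20 closest genes, 20 were duplicated for Son, 19 for Paxbp1, 18 for Rbm11 and 16 for Scaf4. Beside the 15099 compared genes, the segment held 98 genes with a mean of at least 1 CPM, counting the gene itself. All these patterns share the same mice and the genotype difference, so the likeness is a description.

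Genes that work with the 4 proteins were then examined in 10 lists drawn from general knowledge, with earlier results of these data known. Of 255 listed genes 254 were in the table and 250 were tested, none of them duplicated. In edgeR 3 of these 250 were called, 2 higher and 1 lower, against the 1.11% called among all tested genes. At an unadjusted p below 0.05 there were 31, 12 higher and 19 lower, where all tested genes gave 14.4%, 1373 higher and 1104 lower. Counts of single lists at this unadjusted threshold are to be read against that share. DESeq2 called 8 of the listed genes, where it called 3.2% of all 15853 genes to which it gave an adjusted p, 507 in all, and DESeq2 counts of single lists are to be read against that share. In 7 of the 250 the values of the genotypes did not overlap, against 3.68% of all tested genes. The median log2 fold change over the listed genes was −0.018.

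For Son, the list of 28 nuclear speckle and SR proteins held no called gene in edgeR or DESeq2. It held 5 at an unadjusted p below 0.05, 1 higher and 4 lower, against 14.4% of all tested genes. Their log2 fold changes ranged from −0.14 to 0.10 with a median of −0.041. The lowest p-values were those of Rnps1, a junction complex protein, at −0.14 ± 0.046 SE (edgeR, adjusted p = 0.203) and Srpk2, a kinase of SR proteins, at 0.10 ± 0.035 (adjusted p = 0.224). Srrm2, which with SON forms the core of speckles, had a log2 fold change of −0.024 ± 0.066 (adjusted p = 0.901), and the speckle RNA Malat1 had 0.067 ± 0.13 (adjusted p = 0.843).

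A further list held 17 genes whose splicing is known to need SON. Its total levels gave 0 called genes in edgeR and 1 in DESeq2 (against 3.2% of all genes). It held 5 at an unadjusted p below 0.05, 3 higher and 2 lower, against 14.4% of all tested genes. The median log2 fold change was −0.021. The DESeq2 call was Pfkl, a phosphofructokinase, with 0.15 ± 0.041 SE in edgeR (adjusted p = 0.119). Flna, the actin crosslinker filamin A, was at −0.22 ± 0.073 (adjusted p = 0.186). A count of reads per gene does not show how a transcript was spliced, so use of introns was not analysed here.

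For Rbm11, the list of its paralog Rbm7, the nuclear exosome targeting complex and the RNA exosome held 14 tested genes, with 0 called in edgeR or DESeq2 and 0 at an unadjusted p below 0.05. The median log2 fold change was −0.026. Rbm7 itself was at −0.027 ± 0.041 SE (edgeR, adjusted p = 0.796), Exosc3 at −0.13 ± 0.085 (adjusted p = 0.492) and Exosc4 at −0.14 ± 0.098 (adjusted p = 0.534). Bcl2l1, the apoptosis regulator whose splicing RBM11 affects, was at −0.02 ± 0.032 (adjusted p = 0.799), and Srsf1, whose protein RBM11 opposes, at −0.05 ± 0.048 (adjusted p = 0.631). Of 37 other Rbm genes 0 were called in edgeR, 1 in DESeq2 and 3 at an unadjusted p below 0.05. The DESeq2 call was Rbm33, at −0.15 ± 0.036 (edgeR, adjusted p = 0.070), and Rbm46, at under 1 CPM in WT, was at 0.62 ± 0.22 (adjusted p = 0.223).

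For Scaf4, 29 genes of the CTD-binding proteins and of 3′ end processing were tested, with 0 called in edgeR, 1 in DESeq2 and 1 at an unadjusted p below 0.05. The median log2 fold change was −0.0088. That gene was Cpsf1, the large cleavage and polyadenylation subunit, at −0.15 ± 0.041 SE (edgeR, adjusted p = 0.110). Pabpn1, the nuclear poly(A)-binding protein, was at −0.12 ± 0.061 (adjusted p = 0.379). The paralog Scaf8 was at 0.043 ± 0.037 (adjusted p = 0.618), Polr2a, the polymerase subunit that bears the CTD, at −0.041 ± 0.043 (adjusted p = 0.691), and the termination factor Pcf11 at −0.015 ± 0.060 (adjusted p = 0.933).

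For Paxbp1, 13 partners and relatives were tested, and Pax3 and Pax7 were too low to be tested in hippocampus. Of the 13, 0 were called in edgeR or DESeq2 and 1, the methyltransferase Kmt2b, had an unadjusted p below 0.05, at −0.10 ± 0.042 SE (edgeR, adjusted p = 0.288). The median log2 fold change was −0.063. The paralog Gcfc2 was at −0.079 ± 0.093 (adjusted p = 0.729), and the spliceosome disassembly proteins Tfip11 and Dhx15 were at 0.011 ± 0.048 and −0.025 ± 0.046 (adjusted p = 0.939 and 0.838). The methyltransferase subunits Wdr5, Ash2l and Rbbp5 were at 0.089 ± 0.054, 0.070 ± 0.044 and −0.083 ± 0.039 (adjusted p = 0.476, 0.487 and 0.353).

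The 3 called genes came from the general lists. Of 57 core spliceosome genes 2 were called in edgeR and in DESeq2, and 8 had an unadjusted p below 0.05 in edgeR, 3 higher and 5 lower. Prpf19, a ubiquitin ligase of the spliceosome, rose from 182 ± 5.52 to 205 ± 6.30 CPM (SD, n = 5), by 0.18 ± 0.034 SE on the log2 scale in edgeR (adjusted p = 0.0228). Snrpb, a core protein of the small nuclear ribonucleoproteins, fell from 57.5 ± 2.46 to 49.1 ± 2.62 CPM, with a log2 fold change of −0.23 ± 0.048 (adjusted p = 0.0361), where 0.238% of all tested genes were called lower. Of 27 neuronal splicing regulators 1 was called in edgeR and 3 in DESeq2, against its share of 3.2% over all genes. An unadjusted p below 0.05 in edgeR was found for 7, 4 higher and 3 lower, against 14.4% of all tested genes. The edgeR call was Elavl2, a neuronal RNA-binding protein, which rose from 77.9 ± 3.43 to 92.4 ± 6.24 CPM (log2 fold change 0.25 ± 0.049, adjusted p = 0.0296). The neuronal marker list was on average higher by 0.085 in the same mice, though not in each of its genes. The part of neuronal content in the rise of Elavl2 was not tested. The further DESeq2 calls were lower in Dp1Tyb, Ptbp1, a splicing repressor, with an edgeR log2 fold change of −0.24 ± 0.070 SE (adjusted p = 0.145 in edgeR and 0.0443 in DESeq2) and Celf3, a CELF family RNA-binding protein, with −0.23 ± 0.055 (adjusted p = 0.0667 and 0.00920). Both are named here after their values were seen. With 1 mouse left out, Prpf19 and Elavl2 were each called in 4 of 10 fits and Snrpb in 2 of 10, whereas the 4 duplicated genes were called in all 10.

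Of 23 hnRNP genes 0 were called in edgeR or DESeq2 and 1 had an unadjusted p below 0.05. This was Hnrnpm at −0.14 ± 0.047 SE (edgeR, adjusted p = 0.196), while Hnrnpl was at −0.084 ± 0.042 (adjusted p = 0.388). The last list held 7 RNA genes of human chromosome 21 whose mouse orthologs lie outside the segment and stay at 2 copies. Of these 0 were called in edgeR or DESeq2 and 0 had an unadjusted p below 0.05. The splicing factor U2af1 was at −0.023 ± 0.047 (adjusted p = 0.857), and the ribosome biogenesis genes Rrp1 and Rrp1b were at 0.073 ± 0.037 and −0.11 ± 0.072 (adjusted p = 0.385 and 0.512).

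**Figure D4:**
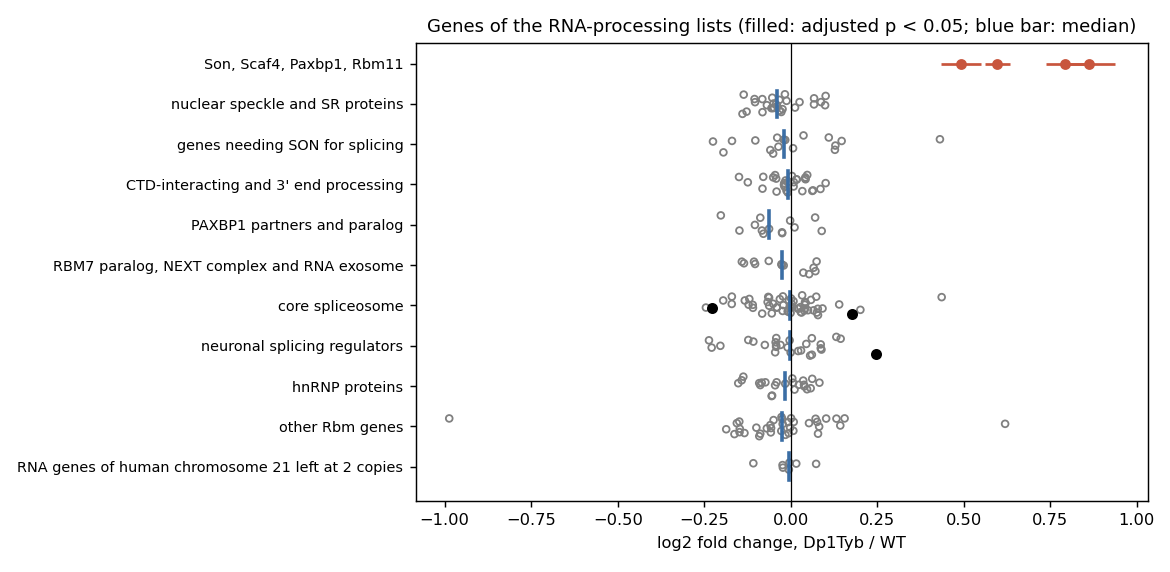
Log2 fold change of Dp1Tyb against WT (horizontal axis) for each tested gene of the 10 RNA-processing lists and, in the top line with SE bars, for the 4 duplicated genes; filled black points are called genes and blue bars are list medians. The duplicated genes lie between 0.49 and 0.86, while the list medians lie between −0.063 and −0.00097.

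No relative of the 4 genes passed the test, and their levels relative to these genes are given as ratios of RPKM (geometric means over 5 mice). The ratios were set up after the values were seen and carry no test. They use the length of all exons of each gene. Another choice of length would shift a ratio by the same factor in both genotypes, so whether it lies above or below 1 depends on that choice. Rbm11 stood at 0.512 times Rbm7 in WT and 0.944 times in Dp1Tyb. Scaf4 stood at 0.790 times Scaf8 in WT and 1.08 times in Dp1Tyb. Paxbp1 was at 7.75 times Gcfc2 in WT and 12.5 times in Dp1Tyb, and Son was at 0.497 and 0.877 times Srrm2. RPKM levels of the partners stayed close between the genotypes, at 5.96 and 5.85 for Rbm7, 11.6 and 11.9 for Scaf8, 1.45 and 1.36 for Gcfc2, and 75.4 and 74.2 for Srrm2 in WT and Dp1Tyb.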

How the data were processed

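The authors prepared stranded poly(A) libraries from total RNA. Per their methods and the labels' processing notes, they trimmed reads with Trim Galore, mapped them to GRCm38 with TopHat2 2.0.12, discarded reads with several alignments and counted the rest per gene with HTSeq. The strand setting and annotation release are not given in the sources used here. The authors deposited raw counts, whole numbers of reads per gene, which were analysed. Their deposited table of normalized counts and their own DESeq2 1.6.3 comparison (means, log2 fold changes, p-values) were not used.

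Gene symbols and positions came from GENCODE M21 (42462 of 43629 genes matched). Counts were tested in R 4.3.3 with edgeR 4.0.16 (TMM, filterByExpr, quasi-likelihood F-test, Benjamini-Hochberg adjustment over 17237 genes, threshold 0.05, no covariate), after a check on simulated counts. Alternatives were DESeq2 1.42.0, limma 3.58.1 (voom), DESeq2 size factors, TMM outside the segment, no filter, a replicate block and leaving out each mouse. In the simulated counts, with 200 genes changed 1.5-fold, edgeR recovered 70% of them and DESeq2 77%. Of their calls at the same threshold 6.67% and 14.9%, in that order, were false. CPM and RPKM used TMM-scaled library sizes and the exon length of each gene. Single values were compared by exact two-sided permutation tests over 252 relabellings of 10 mice, with 95% intervals by inversion of the test. Over 45 pairs of libraries the chi-square divided by its degrees of freedom was at least 4.89, so no library was a copy of another. The labels give no batch or date.

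The 4 genes and all lists were chosen with earlier results of these data known. Genes named were the called genes of each list (the 4 with the lowest p), otherwise its 2 with the lowest p, 14 partners whatever their values, the nearest tested and overlapping genes, and the 3 most alike. Intervals give the uncertainty of the difference between the genotype means, as estimated from the spread between mice. For edgeR, the SE and interval were derived from the F statistic, with the spread of each gene moderated over all tested genes.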

Additional observations from a re-analysis of the deposited data

Results flagged for a closer look

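Among 46 groups of 5 mice, 2 held a mouse that stood apart from the other 4 by Dixon's criterion, for which chance gives about 1 in 20 groups, or 2.3 of 46. In WT, the level of Paxbp1 against the other duplicated genes was lowest in replicate 4, and the gap to the next mouse took up 0.740 of the range of the group. In Dp1Tyb, the summed level of the microglia markers was lowest in replicate 3, with a gap of 0.824 of the range. Without WT replicate 4 the rise of Paxbp1 over WT still passed the edgeR test. That is another measure than the flagged one, which with all mice did not pass (exact permutation, adjusted p = 0.127).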

How the results depend on the processing

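Over 6 alternatives (DESeq2, voom, other scalings, no filter and the replicate block), the log2 fold changes ranged from 0.79 to 0.80 for Son, stayed at 0.49 for Scaf4, and ranged from 0.59 to 0.60 for Paxbp1 and 0.86 to 0.88 for Rbm11, and all passed the test. With 1 mouse left out they ranged, in that order, from 0.75 to 0.83, 0.45 to 0.52, 0.57 to 0.61 and 0.82 to 0.89, all called. The number of called genes in all was 191, 507 with DESeq2, and 105 to 218 with 1 mouse left out: the low values were 105 (leaving out WT 4 or Dp1Tyb 2), 127 (WT 5) and 111 (Dp1Tyb 3). The calls in the 10 lists numbered 3, 8 with DESeq2, and 0 to 4 with 1 mouse left out (0 when WT 2, WT 5, Dp1Tyb 2 or Dp1Tyb 3 was left out, 1 when WT 1 or WT 4 was). The cause of these shifts was not tested.

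Same-numbered mice of the 2 genotypes deviated together at r over 0.1 in 3 of 5 pairs, with r from −0.068 to 0.27 over the 5 pairs. Only WT replicate 1 was most like the Dp1Tyb mouse of its own number, and no Dp1Tyb mouse was most like the WT mouse of its number. These values can neither establish nor exclude a pairing by number. The main test took the mice as unpaired. With a replicate block 315 genes were called, against 191 without it. The block changed the call of none of the 4 genes and gave 3 calls in the lists.

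With the longest transcript as length, levels in WT and Dp1Tyb became 63.9 and 110.8 RPKM for Son, 15.5 and 23.4 for Paxbp1, and 11.6 and 16.3 for Scaf4. With 1 mouse left out, the log2 change of Scaf4 minus that of Paxbp1 ranged from −0.15 to −0.074 (adjusted exact permutation p = 0.0381 without WT replicate 1). The change of Son minus that of Rbm11 ranged from −0.094 to −0.0071 (−0.0090 without WT replicate 4, −0.035 without Dp1Tyb replicate 2), none of them past the threshold. Scaf4 against the other duplicated genes ranged from −0.085 to −0.017 (−0.023 without WT replicate 2, −0.020 without WT replicate 5), none past it. Against duplicated genes with a mean of at least 10 CPM, Scaf4 was at −0.070 and Paxbp1 at 0.033. Paxbp1 against 1.5-fold ranged from −0.0087 to 0.028 (−0.00015 without WT replicate 4), and Paxbp1 against the other duplicated genes from 0.041 to 0.077 (adjusted exact permutation p = 0.0423 without Dp1Tyb replicate 1). The marker lists ranged from 0.085 to 0.12 for astrocytes, −0.14 to −0.089 for endothelial cells, 0.073 to 0.092 for neurons and −0.017 to 0.048 for hippocampal fields (−0.0074 when WT 4 and −0.0016 when Dp1Tyb 3 was left out). Without WT replicates 2 or 3 the neuronal and astrocyte lists passed an adjusted p of 0.05 by the exact test, and without WT replicate 3 the endothelial list did. Depth limited Rbm11 most, with 161 reads at the lowest, and low neighbours such as Gm10785.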
